A study of Mus musculus with 16 samples.

Results

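Hair shaft keratins are the structural proteins of the hair fibre, and their transcripts were followed here in whole dorsal skin of mice with and without UVB. The genes were taken from a list of 10 symbols for type I and type II keratins of the hair cortex and cuticle, matched by symbol to the gene IDs of the count files. Of these, 9 were matched among 55359 gene IDs, 7 of type I (Krt31, Krt32, Krt33a, Krt33b, Krt34, Krt35 and Krt36) and 2 of type II (Krt81 and Krt86), and Krt85 was not analysed here. All 9 passed the filter on low counts, which left 17531 genes to test. The 16 libraries fall into 4 groups of 4, all from male mice aged 8 weeks whose dorsal skin is labelled telogen, when follicles rest. The groups are wild-type (WT) control skin, WT skin after 3xUVB, control skin of Tnfrsf1a/b KO mice, which lack both TNF receptor genes by label, and KO skin after 3xUVB. Controls had no UVB. The UVB dose, the time between the exposures and the sampling, and the alleles of the KO were not given in the sources used here. Whether each library stands for 1 mouse is not stated by the labels, and the p-values therefore cover the spread among these libraries alone, some of which may be technical.

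Keratins assemble as pairs of a type I and a type II chain into intermediate filaments. In the growing hair follicle, matrix cells that leave the cycle switch on hair keratins in a set order as they become the cortex and the cuticle of the shaft. The filaments are then bound together by keratin-associated proteins and hardened by cross-links between cysteines. Krt35 is known as an early keratin of the matrix, precortex and cuticle, Krt31, Krt33a, Krt33b and Krt34 as type I keratins of the cortex, Krt81 and Krt86 as type II keratins of the cortex, and Krt32 as a cuticle keratin. Krt36 is a hair keratin that is also known from the filiform papillae of the tongue. The homeobox protein HOXC13, the forkhead protein FOXN1 and the Wnt effector LEF1 are known regulators of hair keratin genes.

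The 7 type I genes lie on chromosome 11 in the order Krt33a, Krt33b, Krt34, Krt31, Krt32, Krt35 and Krt36, all on the minus strand. The 2 type II genes lie on chromosome 15, Krt81 on the minus and Krt86 on the plus strand. Because most of these genes moved together in the libraries while Krt32 and Krt36 moved less, 3 promoters are shown, each as the 250 bases before the start of the gene. Krt34 had the highest and Krt36 the lowest mean level of the 5 members in the promoter table (Krt31, Krt32, Krt33b, Krt34 and Krt36), and Krt32 was added after its values were seen. Sequences are RefSeq on GRCm38.p6, read 5′ to 3′ on the minus strand, at chr11:100041555-100041804 for Krt34, chr11:100088270-100088519 for Krt32 and chr11:100105627-100105876 for Krt36. Capitals mark matches to the TATA box (TATAAA), to a LEF1/TCF motif (CTTTGAA or CTTTGAT) and to a HOXC13 motif (TTAATNAA, TTAATNAG, TTAATNGA, TTAATNGG, TTTATNAA, TTTATNAG, TTTATNGA or TTTATNGG), where N is any base.
Krt34: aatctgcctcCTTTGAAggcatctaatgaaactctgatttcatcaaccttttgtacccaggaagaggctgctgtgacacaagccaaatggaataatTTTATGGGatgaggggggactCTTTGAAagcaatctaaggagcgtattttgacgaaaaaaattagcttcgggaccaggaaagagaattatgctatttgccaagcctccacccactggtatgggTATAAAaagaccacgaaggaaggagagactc
Krt32: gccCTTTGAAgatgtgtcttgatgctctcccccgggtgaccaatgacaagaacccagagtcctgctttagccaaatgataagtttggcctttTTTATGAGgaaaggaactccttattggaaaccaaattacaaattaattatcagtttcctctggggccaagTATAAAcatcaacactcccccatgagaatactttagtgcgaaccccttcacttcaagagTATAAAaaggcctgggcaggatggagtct
Krt36: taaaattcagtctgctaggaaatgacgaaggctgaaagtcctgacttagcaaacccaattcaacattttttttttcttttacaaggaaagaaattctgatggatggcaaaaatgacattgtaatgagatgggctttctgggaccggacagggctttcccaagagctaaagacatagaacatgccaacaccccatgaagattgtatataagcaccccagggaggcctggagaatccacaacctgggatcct
The motifs were chosen after these sequences had been read, and each was searched on both strands. A match is a description of the letters and not a bound site. Krt34, Krt32, Krt31 and Krt33b each held all 3 motifs, as did 0.615% of the 32851 promoter windows of the table. The Krt36 window held no exact match, and near matches, such as to the TATA box, were not counted. Because the motifs were chosen from these sequences, that share does not show how rare the set is. The HOXC13 motif can also cover the TATA box on the opposite strand, so these motifs are not independent. A LEF1/TCF match began 240 bases before the start in Krt34, 247 in Krt32 and Krt33b and 244 in Krt31. A HOXC13 match began 154 bases before the start in Krt34, 158 in Krt32 and Krt31 and 159 in Krt33b. Over all windows, 12.4% held the TATA box, 7.48% the LEF1/TCF motif and 17.2% the HOXC13 motif. In Krt31 a second HOXC13 match, on the opposite strand, overlapped the TATA box.

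Values are normalised read counts per 1000000 reads in genes (CPM, scaled with TMM), given as mean ± SD with n = 4 libraries per group, and log2 fold changes ± SE come from edgeR's quasi-likelihood test with Benjamini-Hochberg adjustment over all genes tested. A gene was called at an adjusted p under 0.05. Libraries held 15644375 to 23200649 reads in genes, so that a count of 0 allows up to 0.127 to 0.186 CPM (3 counts). As a check of the genotype labels, Tnfrsf1a lay at 133 to 148 CPM without and 140 to 162 CPM with UVB in WT skin, against 82.2 to 93.9 without and 89.3 to 105 CPM with UVB in KO skin. In the same order Tnfrsf1b lay at 44.4 to 69.6 and 33.6 to 51.7 CPM in WT, and at 16.4 to 24.9 and 15.6 to 27.9 CPM in KO skin. Reads of both genes remained in KO libraries. WT UVB library 2 stood apart from its group in 6 of the hair shaft keratins, and results that rest on it are given with and without it.

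In WT control skin all 9 hair shaft keratins were detected in every library, although the skin is labelled telogen. Per kilobase of transcript, Krt33a had the highest level at 23.4 ± 10.6 CPM per kb, followed by Krt34 (17.7 ± 8.43), Krt86 (15.2 ± 6.97), Krt31 (14.5 ± 7.08), Krt81 (13.9 ± 5.92), Krt35 (11.5 ± 6.20), Krt33b (8.71 ± 4.94), Krt32 (6.85 ± 0.705) and Krt36 (1.40 ± 0.357). Each neighbour in this order from Krt33a down to Krt32 differed by less than the SD of the pair's larger value. Krt36 stood below Krt32, with libraries at 1.61 to 2.91 CPM against 9.83 to 12.6 CPM for transcripts of 1671 and 1664 bases. The libraries of the group were not alike. WT control library 2 was the highest for 8 of the 9 genes and library 3 the lowest for 8, with Krt32 highest in library 4 and Krt36 lowest in library 4. Summed over the 9 genes, the 4 WT control libraries held 224, 300, 109 and 141 CPM, which is 0.0112 to 0.031% of the reads in genes. Without Krt32 and Krt36 the sums were 210, 286, 96.7 and 127 CPM, a range in which the highest library lay well above the lowest. Krt32 kept to a narrower range, at 9.83 to 12.6 CPM.

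**Figure D1:**
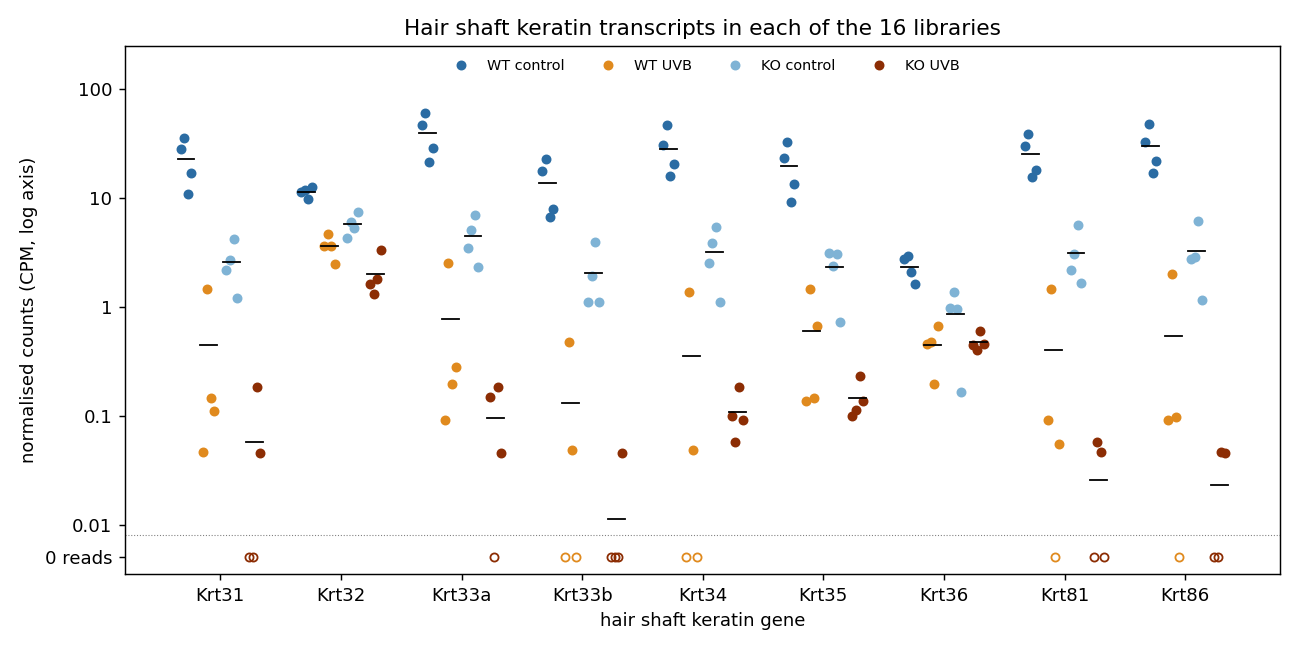
Normalised counts (CPM, log axis) of the 9 hair shaft keratins in each library, as 1 point per library with the group mean as a bar; open circles below the dotted line are libraries with 0 reads. The 4 WT control libraries lay above the other 12 in all 9 genes, with the narrowest gap in Krt36 and Krt32, and WT UVB library 2 was the highest of its group in 8 genes.

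Some of these genes share stretches of sequence, so that reads from one may be counted for another or left uncounted. The counts list 0 multimapping reads in every library, and how such reads were handled was not given in the sources used here. Against the longest coding transcripts of 53 mouse keratin genes, 43.5% of the 50-base stretches of Krt81 and 43.3% of those of Krt86 also occur in another keratin, mostly in each other (38.0% and 35.6%). The share was 33.1% for Krt34, 28.1% for Krt31, 24.2% for Krt33b and 21.9% for Krt33a. It was 3.95% for Krt35, 0.432% for Krt36 and 0 for Krt32. The split of reads among Krt31, Krt33a, Krt33b and Krt34, and between Krt81 and Krt86, is therefore uncertain. Krt35, Krt36 and Krt32 shared little or nothing with the other coding keratin transcripts. Sharing with pseudogenes, other transcripts or the rest of the genome was not searched.

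The comparison of WT UVB with WT control skin asks how the hair shaft keratins respond to UVB. All 9 genes fell, with a median log2 fold change of -5.65 against -0.03 over all genes tested. In this comparison 18.8% of all genes tested were called, 8.6% as lower. The 4 UVB libraries lay below the 4 control libraries in all 9 genes, as they did in 13.1% of all genes. In a bulk sample, fewer cells of a type and less RNA per cell cannot be told apart, here and in each comparison that follows.

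Krt35, the early matrix and cuticle keratin, was at 23.5, 33.0, 9.22 and 13.4 CPM in the WT control libraries and at 0.138, 1.47, 0.145 and 0.667 CPM after UVB. The groups did not overlap, and UVB libraries 2 and 4 were the higher ones. Krt35 fell by 5.02 ± 0.61 on the log2 scale (edgeR adjusted p = 7.15e-05).

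Among the type I cortex keratins, Krt33a went from 47.3, 60.4, 21.3 and 28.6 CPM in control to 0.0923, 2.51, 0.194 and 0.278 CPM after UVB. Library 2 after UVB was the only one above 1 CPM. The log2 fold change of Krt33a was -5.64 ± 0.67 (edgeR adjusted p = 6.31e-05). Krt34 was at 30.8, 46.6, 16.1 and 20.5 CPM in control and at 0, 1.38, 0.0485 and 0 CPM after UVB, so that 2 UVB libraries held no read and 1 held a single read. Its log2 fold change was -6.26 ± 0.77 (edgeR adjusted p = 7.83e-05). Krt31 fell from 10.8 to 35.8 CPM in control to 0.0461 to 1.47 CPM after UVB (-5.65 ± 0.69, edgeR adjusted p = 7.61e-05). Krt33b, with control libraries at 6.64 to 22.8 CPM, was read in 2 of the 4 UVB libraries, at 0.474 and 0.0485 CPM (-6.61 ± 0.75, edgeR adjusted p = 4.31e-05). These cortex keratins thus shared the pattern of near absence in 3 UVB libraries and a low level in library 2.

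The type II cortex keratins did the same. Krt86 was at 32.9, 47.9, 17.1 and 21.8 CPM in control and at 0.0923, 1.99, 0.0969 and 0 CPM after UVB, with no overlap. It fell by 5.72 ± 0.76 on the log2 scale (edgeR adjusted p = 0.000145). Krt81 ranged from 15.6 to 39.0 CPM in control and from 0 to 1.47 CPM after UVB (-5.93 ± 0.71, edgeR adjusted p = 6.59e-05).

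The remaining 2 genes fell less. The cuticle keratin Krt32 was at 11.4, 11.8, 9.83 and 12.6 CPM in control and at 3.60, 4.70, 3.63 and 2.50 CPM after UVB. Both groups were tight and lay apart, and library 2 was again the highest after UVB. Krt32 fell by 1.65 ± 0.25 on the log2 scale (edgeR adjusted p = 0.000312). Krt36 was at 2.73, 2.91, 2.10 and 1.61 CPM in control and at 0.461, 0.474, 0.194 and 0.667 CPM after UVB, with library 4 the highest. Its fold change was -2.37 ± 0.43 (edgeR adjusted p = 0.00132).

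WT UVB library 2 held 31 of the 37 reads of Krt31 in its group, 53 of 64 of Krt33a, 29 of 30 of Krt34, 31 of 34 of Krt81 and 42 of 46 of Krt86. Without it, the ratio of WT control to WT UVB skin from the summed counts was 220 for Krt31 (95% counting interval 101 to 602), 207 for Krt33a (115 to 415), 494 for Krt81 (169 to 2397) and 430 for Krt86 (168 to 1579), against 48.2, 48.0, 58.8 and 50.4 with it. For Krt34 and Krt33b a single read was left in the other 3 libraries. Krt35 gave a ratio of 62.8 without and 31.1 with this library. Krt32 (3.46 against 3.11) and Krt36 (5.32 against 5.19) moved little. All 9 genes were called lower with the library left out, so that the size of the fall moved with it and the call did not. The intervals cover counting error only.

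The same comparison in KO skin shows what happened where the TNF receptor genes were knocked out. There 8 of the 9 genes fell, with a median log2 fold change of -5.26 against -0.02 over all genes, and 32.3% of all genes tested were called, 15.1% as lower. The 4 UVB libraries lay below the 4 control libraries in these 8 genes, as in 11.5% of all genes. Krt35 was at 3.11, 2.37, 3.09 and 0.721 CPM in KO control and at 0.0995, 0.114, 0.231 and 0.137 CPM after UVB. KO control library 4 was the lowest of its group and still above every UVB library. Krt35 fell by 3.93 ± 0.78 on the log2 scale (edgeR adjusted p = 0.00179).

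Krt33a was at 3.50, 5.13, 6.98 and 2.33 CPM in KO control and at 0.149, 0, 0.185 and 0.0455 CPM after UVB. All 4 UVB libraries together held 8 reads of it. The log2 fold change was -5.43 ± 0.93 (edgeR adjusted p = 0.000679). Krt34 stood at 2.53, 3.90, 5.38 and 1.11 CPM and after UVB at 0.0995, 0.0571, 0.185 and 0.0911 CPM (-4.80 ± 0.96, edgeR adjusted p = 0.00193). Krt31 ranged from 1.22 to 4.21 CPM and then from 0 to 0.185 CPM (-5.26 ± 0.99, edgeR adjusted p = 0.00128). KO control library 3 was the highest for each of these 3 genes, and library 4 the lowest.

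Krt33b, Krt81 and Krt86 were almost unread in KO UVB skin, so their size of change is given from the counts. Krt33b had 163 reads in the KO control and 1 read in the KO UVB libraries, a ratio of 164 (95% counting interval 28.9 to 6498, edgeR adjusted p = 0.000632). Krt81 had 253 reads and 2 reads, a ratio of 127 (34.8 to 1054, edgeR adjusted p = 0.000671). For Krt86 it was 262 reads and 2 reads, a ratio of 131 (36.0 to 1091, edgeR adjusted p = 0.00131). Their KO control libraries lay at 1.11 to 3.99, 1.66 to 5.64 and 1.16 to 6.18 CPM.

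Krt32 was at 4.28, 6.06, 5.32 and 7.38 CPM in KO control and at 1.64, 1.31, 1.80 and 3.32 CPM after UVB. The groups did not overlap, and library 4 was the highest in each. Krt32 fell by 1.50 ± 0.26 on the log2 scale (edgeR adjusted p = 0.000655). Krt36 was at 0.972, 1.36, 0.958 and 0.166 CPM in KO control and at 0.448, 0.399, 0.600 and 0.455 CPM after UVB. KO control library 4, with 3 reads, lay below all 4 UVB libraries, while the other 3 control libraries lay above them. The change of Krt36 did not pass the test (-0.87 ± 0.45, edgeR adjusted p = 0.148), and without KO control library 4 it did (-1.19, edgeR adjusted p = 0.0159).

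Without UVB, KO skin held fewer hair shaft keratin transcripts than WT skin. Of the 9 genes, 8 were lower, at a median log2 fold change of -3.08 against 0 over all genes, while 1.69% of all genes tested were called, 1.28% as lower. The KO control libraries lay below the WT control libraries in all 9 genes, as in 4.63% of all genes. The values per library are those given above for the control groups. The log2 fold change was -3.08 ± 0.52 for Krt35 (edgeR adjusted p = 0.00608), -3.13 ± 0.56 for Krt33a (0.00862) and -3.14 ± 0.57 for Krt31 (0.00904). The highest KO libraries were at 3.11, 6.98 and 4.21 CPM for these genes and the lowest WT libraries at 9.22, 21.3 and 10.8 CPM. These 3 calls held under every alternative, with the largest adjusted p at 0.028, 0.0416 and 0.0428.

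The other 4 cortex keratins changed by a like amount, at -3.13 ± 0.61 for Krt34 (edgeR adjusted p = 0.0138), -2.76 ± 0.54 for Krt33b (0.0150), -3.03 ± 0.57 for Krt81 (0.0123) and -3.20 ± 0.63 for Krt86 (0.0155). Their calls were less firm. DESeq2 gave adjusted p of 0.0805 for Krt34, 0.0654 for Krt33b, 0.0719 for Krt81 and 0.0738 for Krt86, and a fit with no filter beyond 1 read 0.0582, 0.0572, 0.0529 and 0.0661. Each of the 4 calls ended without WT control library 2 (0.0564, 0.0577, 0.0503 and 0.0598) and without KO control library 4 (0.0513, 0.0576, 0.0513 and 0.0556). Without KO control library 1 the calls of Krt34 (0.0525), Krt33b (0.0538) and Krt86 (0.0557) ended, without KO control library 2 those of Krt33b (0.0526) and Krt86 (0.0545), and without WT control library 1 that of Krt33b (0.0538). Over all alternatives their adjusted p lay between 0.00131 and 0.0805.

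Krt32 gave -0.98 ± 0.24 (edgeR adjusted p = 0.0492), with the highest KO library at 7.38 and the lowest WT library at 9.83 CPM. That call lies close to the threshold and ended without any 1 of the 8 control libraries (0.0521 to 0.140), with the replicate number as a block (0.0714) and with a mean count of at least 100 (0.0865), while DESeq2 gave 0.00291. Krt36 did not pass the test (-1.40 ± 0.39, edgeR adjusted p = 0.104), although its KO libraries (0.166 to 1.36 CPM) lay below its WT libraries (1.61 to 2.91 CPM), and DESeq2 called it at 0.0314. The number of hair shaft keratins called was 5 with DESeq2, 8 with limma voom and 4 with no filter beyond 1 read. It was 3 without WT control library 2, 4 without KO control library 1, 5 without KO control library 2 and 3 without KO control library 4.

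**Figure D2:**
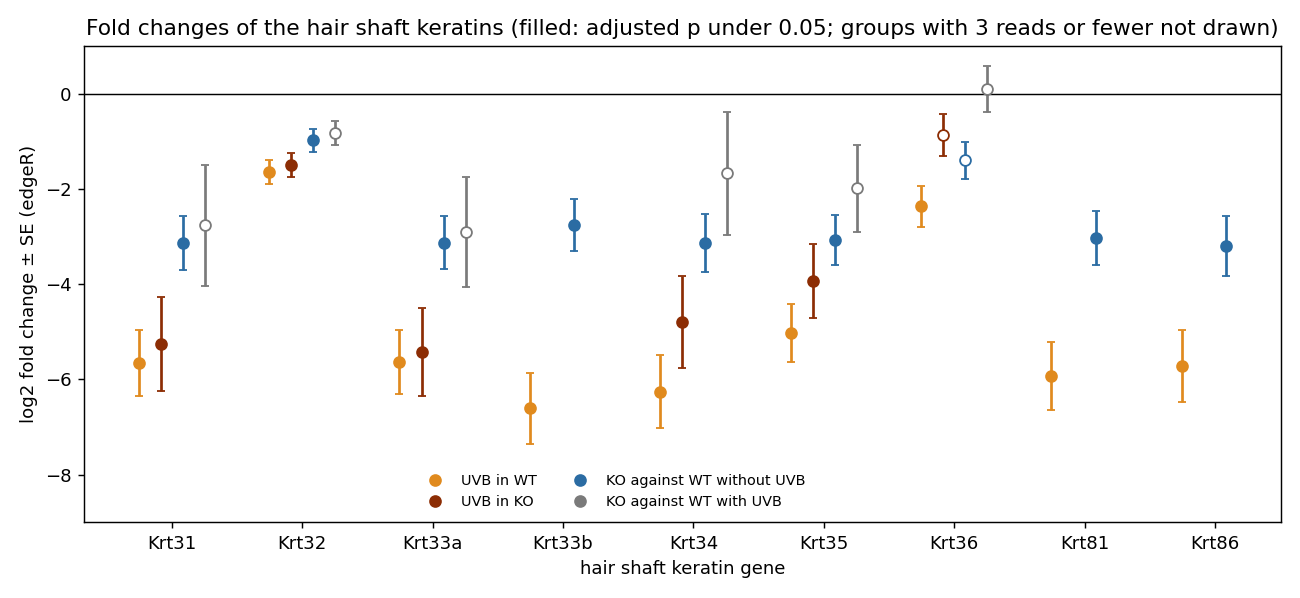
Log2 fold changes of the 9 genes in 4 comparisons (points, with SE as bars, from edgeR), filled where the adjusted p was under 0.05; comparisons in which a group had 3 reads or fewer are not drawn. Krt32 and Krt36 lie closest to 0 in the UVB and genotype comparisons, and no point of KO against WT skin with UVB is filled.

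After UVB no difference between the 2 genotypes passed edgeR's test in a hair shaft keratin. None of the 9 genes was called, 6 had an unadjusted p under 0.05, and 0.856% of all genes tested were called, 0.359% as lower. DESeq2 and limma voom each called 1, Krt32, at adjusted p of 0.0455 and 0.0261. KO and WT UVB libraries overlapped in all 9 genes, where 3.89% of all genes had every KO library below every WT library. The median log2 fold change was -2.76, or -1.99 with the 3 genes of 1 or 2 reads in KO UVB skin (Krt33b, Krt81 and Krt86) set to 3 counts summed over the group as a floor, against 0.01 over all genes.

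Most members were at or near the limit of detection in both groups. Krt32, the gene with the most reads after UVB, was at 2.50 to 4.70 CPM in WT and 1.31 to 3.32 CPM in KO skin (-0.83 ± 0.26, edgeR adjusted p = 0.132). KO UVB library 4 was the highest of its group, and without it the change passed the test (-1.18, edgeR adjusted p = 0.0148). Krt36 was at 0.449 ± 0.194 CPM in WT and 0.476 ± 0.0866 CPM in KO skin (0.10 ± 0.48, edgeR adjusted p = 0.939). Krt31 gave -2.76 ± 1.27 (0.297), Krt33a -2.91 ± 1.15 (0.227) and Krt35 -1.99 ± 0.92 (0.300) by edgeR. Without WT UVB library 2 these values were -0.65, -0.86 and -1.01. Krt34 then turned from -1.67 to 2.36, a fitted value that rests on 1 read in WT UVB and 9 reads in KO UVB skin. No difference between the genotypes after UVB was called in the cortex keratins, which had 1 to 9 reads each in the 4 KO UVB libraries. From the summed counts, their ratio of WT to KO UVB skin ran from 3.33 for Krt34 (95% counting interval 1.54 to 7.97) to 23.0 for Krt86 (6.0 to 195). These intervals cover counting error only, and WT UVB library 2 held most of the WT reads. The parts of read depth and of the spread among libraries in this outcome were not tested.

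The interaction asks whether UVB changed these genes by different factors in KO and WT skin. By edgeR 0 of the 9 genes were called, as by DESeq2 and limma voom, 1 had an unadjusted p under 0.05 (Krt36), and 0.0228% of all genes tested were called. The intervals were wide. DESeq2 put the difference for Krt32 at 0.16 ± 0.36 on the log2 scale with a 95% interval from -0.54 to 0.85. For Krt36 it was 1.52 ± 0.65, from 0.25 to 2.79 (DESeq2 adjusted p = 0.237), that is a smaller fall in KO than in WT skin before adjustment. The interval for Krt35 ran from -1.04 to 3.12 and that for Krt33a from -2.44 to 2.72, so that large differences in either direction were within the error for the cortex keratins.

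The make-up of the hair shaft keratin reads changed with their amount. Krt32 made up 3.92 to 9.05% of the reads of the 9 genes in WT control, 12.8 to 43.8% in KO control, 29.5 to 80.6% in WT UVB and 54.9 to 79.3% in KO UVB libraries. The lowest value after UVB in WT was that of library 2, the library with the most hair shaft keratin reads of its group. Per kilobase, Krt32 lay above Krt36 alone in WT control skin and was the highest of the 9 in the other 3 groups, at 3.46 ± 0.783 CPM per kb in KO control, 2.17 ± 0.539 in WT UVB and 1.21 ± 0.537 in KO UVB skin. In KO control skin it was followed by Krt33a (2.66 ± 1.20) and Krt34 (2.01 ± 1.14), which lay within the SD of each other, and Krt36 was again the lowest (0.517 ± 0.299). There the lead of Krt32 over Krt33a was smaller than the SD of Krt33a. In KO control library 3, Krt32 (3.2 CPM per kb) lay below Krt33a (4.14) and Krt34 (3.34). After UVB the next were Krt33a in WT (0.457 ± 0.692) and Krt36 in KO skin (0.285 ± 0.0518). The place of Krt33a in WT rested on library 2, at 1.49 CPM per kb against 0.0548 to 0.165 in the others. Without that library Krt36 lay above Krt33a in WT UVB skin, at 0.441 against 0.188 CPM for transcripts of 1671 and 1683 bases.

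Among the 7 other genes the proportions were much the same in WT and KO control skin. Krt33a made up 22.0 ± 0.628% of their reads in WT and 22.0 ± 2.57% in KO libraries, Krt31 12.6 ± 1.03% and 12.5 ± 0.511%, and Krt81 14.5 ± 1.06% and 15.1 ± 2.32%. Krt34 was at 15.9 ± 0.885% and 14.8 ± 2.40%, Krt86 at 16.8 ± 0.847% and 14.7 ± 2.32%, Krt35 at 10.7 ± 0.887% and 11.3 ± 4.58%, and Krt33b at 7.37 ± 1.02% and 9.57 ± 2.52%. Each difference was smaller than the SD of the KO libraries. The spread among KO libraries was larger than among WT libraries for 6 of the 7 genes, where fewer reads stood behind each share.

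**Figure D3:**
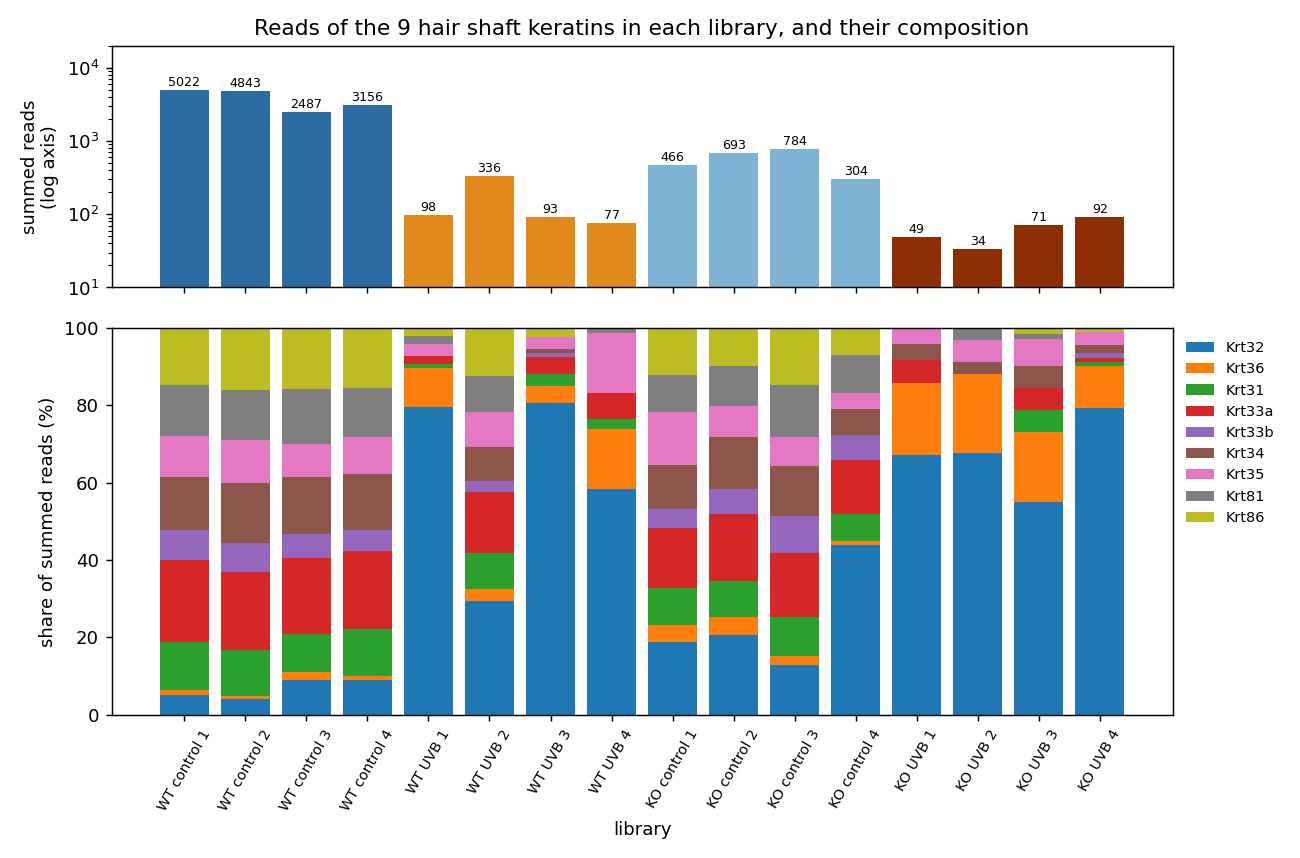
Summed reads of the 9 hair shaft keratins per library (upper panel, log axis) and the share of each gene in that sum in percent (lower panel). Krt32 takes the larger part of the reads in 7 of the 8 UVB libraries and a small part in the WT control libraries, and WT UVB library 2 holds 336 reads against 77 to 98 in its group.

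Other genes of the hair shaft followed the same pattern across the 16 libraries. Likeness was measured as the root mean square distance between a gene's centred log2 CPM and the mean of the 9 hair shaft keratins, among 13703 genes with a median distance of 2.50. The members themselves lay at 0.444 (Krt35) to 1.71 (Krt36), with Krt32 at 1.65. Outside the keratins and keratin-associated proteins, the nearest genes were Calhm4, a calcium homeostasis modulator family channel gene (0.416), Tchh, which encodes trichohyalin of the inner root sheath and medulla (0.419), the receptor gene Gprc5d (0.447), Padi3, an enzyme that citrullinates trichohyalin and other hair proteins (0.536), and S100a3, a calcium-binding protein of the hair cuticle (0.677). Prr9 (0.887), Tchhl1 (0.910), Crym (1.21), Crnn (1.23) and P2rx2 (1.39) came next. Of the 50 nearest genes, 20 were keratin-associated proteins and 9 keratins. These genes were picked for their pattern over the 16 libraries, so their levels are a description with no test. P2rx2, a gene for an ATP-gated channel, was at 10.3 ± 1.29 CPM in WT control and 1.31 ± 0.245 CPM in WT UVB skin. Its KO control libraries, at 5.25 to 11.4 CPM, overlapped the WT control libraries at 9.05 to 11.5 CPM, as in none of the hair shaft keratins.

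The hair keratins outside the list (Krt39, Krt40, Krt82, Krt83, Krt84 and Krt87) fell in WT skin after UVB in 6 of 6 cases, at a median of -5.05, and in 4 of 6 in KO skin. In KO against WT control skin 5 of the 6 were lower. Krt39 and Krt40 passed the filter on low counts only through WT control skin, so hardly any call but lower was possible for them. Krt83, a type II cortex keratin with the smallest adjusted p of this list, went from 35.6 ± 17.2 to 0.933 ± 1.03 CPM in WT skin (-5.23 ± 0.55, edgeR adjusted p = 2.44e-05). In KO control skin it was at 4.0 ± 1.85 CPM (-3.15 ± 0.48 against WT, edgeR adjusted p = 0.00287). Krt84, named after its values were seen, gave -0.18 ± 0.40 for UVB in KO skin (edgeR adjusted p = 0.762) and -1.49 ± 0.38 for KO against WT control (0.0597). With UVB, edgeR, DESeq2 and limma voom called 0 of the 6 between genotypes, as did an unadjusted p under 0.05.

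Keratin-associated proteins, the matrix that binds the hair keratin filaments, had 50 of 58 genes tested. After UVB 49 fell in WT and 44 in KO skin, and 46 were lower in KO than in WT control skin. Medians were -5.58, -4.0 and -3.15 with genes of 3 reads or fewer in a group at the floor. The floor applied to 10, 31 and 0 of the 50 genes, and the fitted medians were -5.62, -4.8 and -3.15. With 31 genes at the floor, the value of -4.0 is set by low counts and does not show a smaller fall in KO than in WT skin. In KO against WT control skin DESeq2 called 29 and limma voom 48. Krtap17-1 went from 6.53 ± 2.37 to 0.570 ± 0.208 CPM in WT skin (-3.49 ± 0.30, edgeR adjusted p = 5.81e-06), and was at 0.964 ± 0.250 CPM in KO control skin (-2.74 ± 0.28 against WT, edgeR adjusted p = 9.45e-05). With UVB, edgeR called 0 of the 50 between genotypes, with 8 at an unadjusted p under 0.05, DESeq2 called 0 and limma voom 1. In the list of other hair shaft and cuticle proteins, 8 of 11 fell and 1 rose in WT and in KO skin, and 8 were lower in KO control skin. This list shares Tchh, Gprc5d, Padi3, S100a3, Prr9, Tchhl1 and Crym with the genes picked above for their pattern. Its counts are therefore not separate from that choice. Tchh was at 962 ± 414 CPM in WT control and 29.2 ± 35.2 CPM in WT UVB skin, with WT UVB library 2 at 82.1 and the others at 10.3 to 12.4 CPM. The gene that rose was Tgm3, a transglutaminase of hair and of cornified epidermis, from 12.5 ± 2.59 to 43.7 ± 7.80 CPM in WT (1.81 ± 0.29, edgeR adjusted p = 0.000625).

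Keratins of the inner root sheath, the layer that moulds the growing shaft, moved with those of the shaft. All 8 fell in WT and 7 of 8 in KO skin after UVB, at medians of -5.38 and -4.95, and 4 of 8 were lower in KO control skin by edgeR. There DESeq2 called 2 and limma voom 7, and all 8 had an unadjusted p under 0.05 in edgeR. Krt25 was at 328, 366, 114 and 176 CPM in the WT control libraries and at 0.138, 17.2, 0.291 and 2.50 CPM after UVB in WT. Library 2 was the highest in both groups, as it was for most hair shaft keratins. Krt25 fell by 5.60 ± 0.94 on the log2 scale (edgeR adjusted p = 0.000968), whereas KO against WT control (-3.21 ± 0.82) missed the threshold at 0.0695. Krt71 gave -5.50 ± 1.10 for UVB in WT skin (edgeR adjusted p = 0.00337) and -3.32 ± 0.98 for KO against WT control (0.142).

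Keratins of the companion layer and outer root sheath, the follicle layers outside the inner root sheath, did not follow as a list. Of 6, 2 fell and 1 rose in WT and 2 fell and 3 rose in KO skin after UVB, and in KO against WT control edgeR called 0 (2 at an unadjusted p under 0.05), DESeq2 1 and limma voom 1. After UVB 8.6% of all genes were called lower in WT and 15.1% in KO skin. Krt75, the companion layer keratin, was among those that fell, from 64.4 ± 4.95 to 26.2 ± 8.48 CPM in WT (-1.30 ± 0.25, edgeR adjusted p = 0.00235). It also fell in KO skin (-1.07 ± 0.25, edgeR adjusted p = 0.00517). Its KO control libraries, at 17.5 to 44.0 CPM, lay below its WT control libraries, at 60.3 to 71.0 CPM (-0.96 ± 0.25, edgeR adjusted p = 0.0704). Interfollicular epidermal keratins went the other way from the hair shaft keratins, with 6 of 8 higher after UVB in WT (10.2% of all genes were called higher) and 6 higher and 1 lower in KO skin (17.2% higher). Krt14, a basal keratin, was at 1279 ± 331 and 3711 ± 494 CPM (1.54 ± 0.28, edgeR adjusted p = 0.0016). Krt5, its partner, was at 2124 ± 517 and 4196 ± 638 CPM (0.98 ± 0.24, edgeR adjusted p = 0.0114). In KO against WT control skin edgeR, DESeq2 and limma voom called 0 of these 8, as did an unadjusted p under 0.05.

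**Figure D4:**
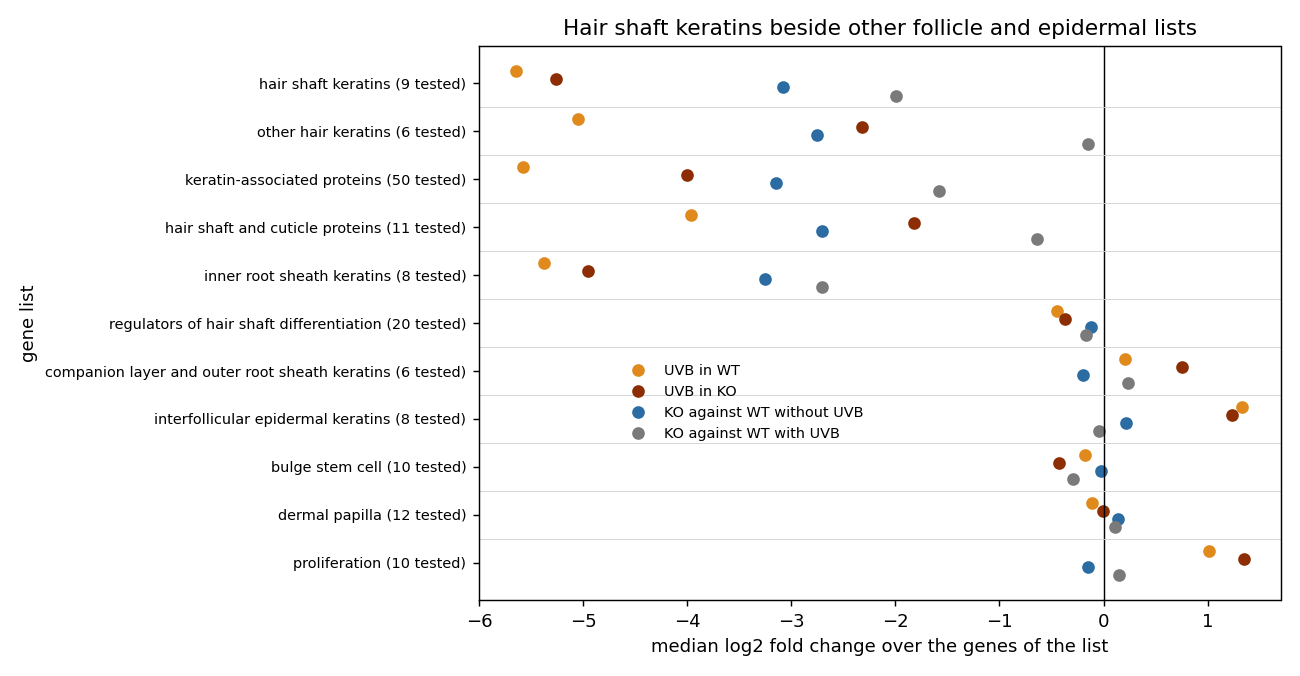
Median log2 fold change of the tested genes of 11 lists in 4 comparisons (points), with a gene that had 3 reads or fewer in 1 group at the floor of 3 counts. For UVB in KO skin, 31 of the 50 keratin-associated proteins were at the floor. The hair shaft keratins lie at -5.65 and -5.26 for UVB and at -3.08 for KO against WT without UVB, near the keratin-associated proteins and the inner root sheath keratins, while epidermal and proliferation lists lie above 0 for UVB.

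Known regulators of the hair shaft changed in part. Of 20, 9 fell and 2 rose in WT and 8 fell and 2 rose in KO skin after UVB. Over all genes tested, 8.6% were called lower and 10.2% higher in WT, and 15.1% and 17.2% in KO skin. The 2 that rose are thus near or below the share over all genes. Hoxc13 and Msx2 were the 2 that edgeR called lower in KO control skin, where 1.28% of all genes were called lower. In that comparison DESeq2 called 4 of the 20 and limma voom 5, and 7 had an unadjusted p under 0.05 in edgeR. Hoxc13 was at 10.2, 10.1, 6.95 and 8.29 CPM in the WT control libraries, 3.46, 5.41, 3.49 and 3.83 in WT UVB, 3.45, 4.70, 4.53 and 4.83 in KO control and 2.94, 3.19, 2.91 and 2.32 in KO UVB libraries. WT control libraries lay above all others, and WT UVB library 2 was the highest of its group, as in the hair shaft keratins. The log2 fold change of Hoxc13 was -1.13 ± 0.18 in WT after UVB (edgeR adjusted p = 0.000456), -0.62 ± 0.18 in KO (0.0168) and -1.02 ± 0.18 in KO against WT control (0.00633). Lef1 fell after UVB in WT (-1.41 ± 0.26, edgeR adjusted p = 0.00166) and in KO skin (-0.83 ± 0.27, 0.0284), and gave -0.93 ± 0.25 in KO against WT control (0.0952). Foxn1 fell in WT (-0.59 ± 0.19, edgeR adjusted p = 0.0441) and gave 0.09 ± 0.19 in KO skin (0.745). Msx2, a homeobox gene of the hair matrix, gave -1.47 ± 0.30, -1.02 ± 0.32 and -1.31 ± 0.29 (edgeR adjusted p = 0.00307, 0.0231 and 0.0312, in the same order).

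Markers of other cells of the skin moved with the hair shaft keratins in some comparisons, and their part in the result was not tested. Over all genes tested, 8.6% were called lower and 10.2% higher after UVB in WT, and 15.1% and 17.2% in KO skin. In KO against WT control skin 1.28% were called lower. Since more of all genes were called in KO than in WT skin, a larger count of a list in KO skin does not show a difference between the genotypes. Proliferation genes were higher after UVB in 9 of 10 cases in WT and in 10 of 10 in KO skin, at 197 to 309 summed CPM in WT control, 425 to 442 in WT UVB, 172 to 283 in KO control and 345 to 581 in KO UVB libraries. Mki67 rose by 0.88 ± 0.25 in WT (edgeR adjusted p = 0.0248). Schwann cell markers fell in 7 of 7 cases in WT and in 5 of 7 in KO skin, with summed levels of 747 to 958 CPM in WT control against 458 to 539 in WT UVB, and 560 to 749 in KO control and 368 to 644 in KO UVB libraries. In KO against WT control skin 1 of these 7 was lower (Cdh19, -0.63 ± 0.14, edgeR adjusted p = 0.0234), while DESeq2 and limma voom each called 3. Bulge stem cell genes, which mark the resting part of the follicle, were called in 0 of 10 cases in WT by edgeR (2 at an unadjusted p under 0.05, 0 by DESeq2 and 1 by limma voom) and were lower in 6 of 10 in KO skin after UVB, at 815 to 978 summed CPM in WT control against 644 to 748 in WT UVB libraries. Neutrophil markers were higher in 2 of 6 cases in WT and in 6 of 6 in KO skin after UVB, at 12.1 to 17 summed CPM in WT control, 19.6 to 49.7 in WT UVB, 11 to 32.1 in KO control and 38.7 to 370 in KO UVB libraries. T cell markers were lower in 4 of 8 cases in each genotype by edgeR, where limma voom called 8 in WT and 5 in KO skin, at 58.9 to 91.4, 27.4 to 50.2, 48.6 to 74.4 and 19.0 to 53.9 summed CPM in the same order. Skeletal muscle genes were lower in 1 of 10 cases in WT, near the share over all genes, and in 7 of 10 in KO skin. Their summed levels, in the same order of groups, were 20913 to 27971, 16539 to 25125, 25006 to 41227 and 12213 to 20319 CPM. Of 8 endothelial markers, edgeR, DESeq2 and limma voom called 0 in WT after UVB and 0 in KO against WT control skin, as did an unadjusted p under 0.05. No gene of these marker lists was at 0 in every library.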

How the data were processed

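RNA of 16 whole-skin samples was sequenced as poly(A)-enriched, directional libraries, per the labels' protocols. Reads were aligned to GRCm39 with STAR, per the submitters' processing notes; its version and the gene annotation behind the counts were not given in the sources used here. Deposited values are raw read counts per gene for each strand, per the layout of the files. The reverse-strand counts were used, which held 95.74% of stranded reads. Lines for unmapped (10.7 to 19.5% of reads), no-feature (7.25 to 10.2%) and ambiguous reads (1.18 to 1.42%) were left out of library sizes. A combined table with 17 value columns that no header ties to samples was not used. Symbols came from GENCODE M21, on another build, and served for names, gene order and transcript lengths alone. They covered 52083 of 55359 IDs, and 1.23% of reads fell in unnamed IDs.

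In R 4.3.3, edgeR 4.0.16 (robust quasi-likelihood test after TMM scaling and filterByExpr) fitted the counts as 1 model of 4 groups with 5 comparisons: UVB in WT, UVB in KO, KO against WT without and with UVB, and the interaction. Scripts were tested on simulated data. SE are those implied by the test, and intervals of the interaction come from DESeq2 1.42.0. CPM are TMM-scaled, and log2 CPM have a prior count of 2. Where a group held 3 reads or fewer over its libraries, the ratio of counts with an exact 95% interval replaces the fitted fold change, except in the fits of alternatives. Alternatives were DESeq2, limma voom (limma 3.58.1) with sample quality weights, DESeq2 size factors, library totals, scaling without keratin and keratin-associated genes, a mean count of at least 100, no filter beyond 1 read, unstranded counts, the replicate number as a block, only the 2 groups compared, and each library left out. The hair shaft keratins are always named; of other lists the rule was the 3 called members with the smallest adjusted p, with 10 genes named whether called or not and the 10 genes nearest in pattern. The members, lists, promoter motifs and rules were chosen with earlier results of these data known.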

Additional observations from a re-analysis of the deposited data

Results flagged for a closer look

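In 6 of the 9 hair shaft keratins WT UVB library 2 lay far from the other 3 libraries of its group. Its level was 1.47 CPM for Krt31 (others 0.0461 to 0.145), 2.51 for Krt33a (0.0923 to 0.278), 0.474 for Krt33b (0 to 0.0485), 1.38 for Krt34 (0 to 0.0485), 1.47 for Krt81 (0 to 0.0923) and 1.99 for Krt86 (0 to 0.0969). Each gap exceeded Dixon's 95% critical value for 4 libraries. In KO UVB library 4, Krt33b was at 0.0455 CPM, a single read, where the other 3 libraries held 0. Of 36 groups of 4 values tested, 7 passed this value, where chance flags about 1 in 20. That rate does not apply to Krt33b in KO UVB skin, since a single read beside 0 in the other libraries always passes, and the 6 in library 2 come from the same library and so are not independent.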

How the results depend on the processing

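For UVB in WT all 9 hair shaft keratins kept their direction and call in all 160 values of alternatives, and for UVB in KO 159 of 160 were unchanged in direction and call. For KO against WT without UVB the direction held in all 160, and 32 calls were lost and 1 gained. There DESeq2 called 5 of the 9 keratins and a fit with no filter beyond 1 read 4, against 8, and leaving out 1 library gave 3 to 8. With UVB, DESeq2 and limma voom each called 1 keratin (leaving out 1 library, 0 to 1). Over all genes the counts were 3290 for UVB in WT (limma voom 5117, leaving out 1 library 2039 to 3707) and 5666 for UVB in KO (2 groups alone 3506). They were 297 for KO against WT without UVB (DESeq2 452, limma voom 589, mean count of at least 100 93, leaving out 1 library 161 to 362), 150 with UVB (DESeq2 658, limma voom 1117, 2 groups alone 79, leaving out 1 library 59 to 487) and 4 for the interaction (DESeq2 212, limma voom 459, no filter beyond 1 read 22, leaving out 1 library 2 to 110). The count for UVB in WT was 2039 without WT control library 1 and 2147 without WT UVB library 3. For KO against WT without UVB it was 166, 161, 196 and 163 without WT control libraries 1 and 2 and KO control libraries 3 and 4. With UVB it was 63, 59 and 62 without WT UVB libraries 1, 2 and 4, 275 without KO control library 1, and 454, 70, 76 and 487 without KO UVB libraries 1 to 4. For the interaction it was 7 without WT control library 3 or KO UVB library 1, 30 and 2 without KO control libraries 1 and 4, and 110 without KO UVB library 4. With the replicate number as a block the counts for KO against WT with UVB and for the interaction were 77 and 7, and the call of Krt32 in KO against WT without UVB was lost. The numbers did not pair the libraries: deviations of same-numbered libraries correlated at -0.403 to 0.219, over 0.1 in 3 of 24 pairs, and 4 of 16 libraries correlated best with their own number. With limma voom, KO against WT with UVB turned to 0.38 for Krt34 and -0.031 for Krt36, and the interaction to -0.10 for Krt32, -0.12 for Krt33a, 1.13 for Krt33b, 1.50 for Krt81 and 0.83 for Krt86. Leaving out 1 library gave -2.11 to 2.36 for Krt34 (2.36 with 1 read left in WT UVB skin) and -0.15 to 0.33 for Krt36 in KO against WT with UVB. For the interaction it gave -1.18 to 2.49 for Krt31, -0.19 to 0.31 for Krt32, -0.30 to 2.27 for Krt33a, -1.77 to 2.45 for Krt33b, -1.25 to 2.17 for Krt81 and -1.43 to 1.96 for Krt86. The cause was not tested. A mean count of at least 100 left out Krt33b and Krt36. Library totals put 34.2% of the calls for UVB in WT higher, against 54.2%, 40.5% against 53.1% in KO, and 41.4% against 58% for KO against WT with UVB. The cortex keratins Krt31, Krt33a, Krt33b, Krt34, Krt81 and Krt86 had 1 to 9 reads each over the 4 KO UVB libraries, and their WT UVB reads came mostly from library 2. Both limit what can be compared between genotypes after UVB.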
